A study of Macaca fascicularis with 11 samples.

Results

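The cells described here are trophoblast cells of cynomolgus macaque (Macaca fascicularis) embryos that carried PAGE4 and XAGE3 transcripts and little CGA. They were chosen cell by cell from single-cell RNA sequencing, on counts corrected for ambient RNA. A cell was taken when its mean log-normalised level of 7 trophoblast genes (CGA, XAGE3, PGF, KRT7, HSD3B1, VGLL1 and INSL4) exceeded the same mean over epiblast, extraembryonic mesenchyme and endoderm genes. It also needed at least 1 unique molecular identifier (UMI, 1 captured transcript) of both PAGE4 and XAGE3, a CGA level under the median of the trophoblast-score cells of its own library, and fewer than 2 of LAIR2, ISM2 and CALCB above 100 CPM (counts-per-million, the UMIs of a gene relative to all UMIs of the cell or library). These 5323 cells, called members, were taken out of 33330 cells and 23229 trophoblast-score cells. The other trophoblast-score cells were 7479 cells with CGA at or above that median (CGA-high cells), 9647 extravillous-like cells with at least 2 of LAIR2, ISM2 and CALCB above 100 CPM, and 780 low-CGA cells without a UMI of PAGE4 or XAGE3.

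Embryos were thawed as blastocysts, cultured without a uterus in medium with estradiol and progesterone, and dissociated at Day 10, Day 12 or Day 14. Wild-type libraries (2 at each day) held 12 embryos. Libraries labelled ISL1_hypomorphic_mutant (1 at Day 10, 2 at Day 12 and 2 at Day 14) held 11. Each library held 1 to 3 embryos. Mutants came from zygotes injected with Cas9 and a pair of guides against ISL1, a transcription factor of the amnion, and were mosaic for the resulting deletions, while no source used here describes an injection of the wild-type embryos. No embryo can be told from another within a library, and the batch labels B1 and B2 occur in both genotypes without a statement that a label marks the same batch in both.

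Cytotrophoblast is the proliferating epithelial layer of the early placenta. Its cells either fuse into syncytiotrophoblast, which secretes chorionic gonadotropin and steroid hormones, or leave the epithelium as invasive extravillous trophoblast. PAGE4 and XAGE3 belong to families of cancer and testis antigens that placenta also makes, VGLL1 is a cofactor of TEAD transcription factors in trophoblast, and CGA codes for the alpha subunit of chorionic gonadotropin.

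One library gave no member. In mutant Day 14 replicate 1 the median CGA level of the 6582 trophoblast-score cells was 0 after correction, so none could lie below it. The correction was itself estimated from choriogonadotropin, and it left a CGA UMI in 47.7% of these cells against 96.2% without it. With CGA at or below the median this library held 2286 members, 34.7% of its trophoblast-score cells, and with the rule applied to uncorrected counts 2033, or 30.4%. Both alternatives were chosen after seeing the data. With the limit at 0, the 3818 cells of this library counted as CGA-high are all its trophoblast-score cells outside the extravillous-like class, 39.1% of them with a CGA UMI, and they were left out wherever members are set beside CGA-high or extravillous-like cells, except where stated. Results at Day 14 in the mutant are therefore given for 1 library, replicate 2, which held 1 embryo. Most also have a value for 2 libraries, with the 3 embryos of replicate 1 added.

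In the other 10 libraries members made up 9.28% (exact 95% binomial interval 6.43 to 12.8%) to 40.9% (37.6 to 44.2%) of trophoblast-score cells. The median cut holds this share under 50% by construction. Both wild-type Day 10 libraries were lowest, at 21.1% and 9.28% with 83 and 32 members, and held 0 and 1 extravillous-like cells, against 142 in the mutant library of that day. From Day 12 on the share lay between 29.5% and 40.9% in 4 wild-type libraries with 99, 202, 712 and 362 members. Mutant libraries held 35.5% at Day 10 (162 members), 29.5% and 34.8% at Day 12 (1295 and 1448) and 34.4% in Day 14 replicate 2 (928). The intervals cover counting error only, and embryos within a library are not replicates of it.

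**Figure D1:**
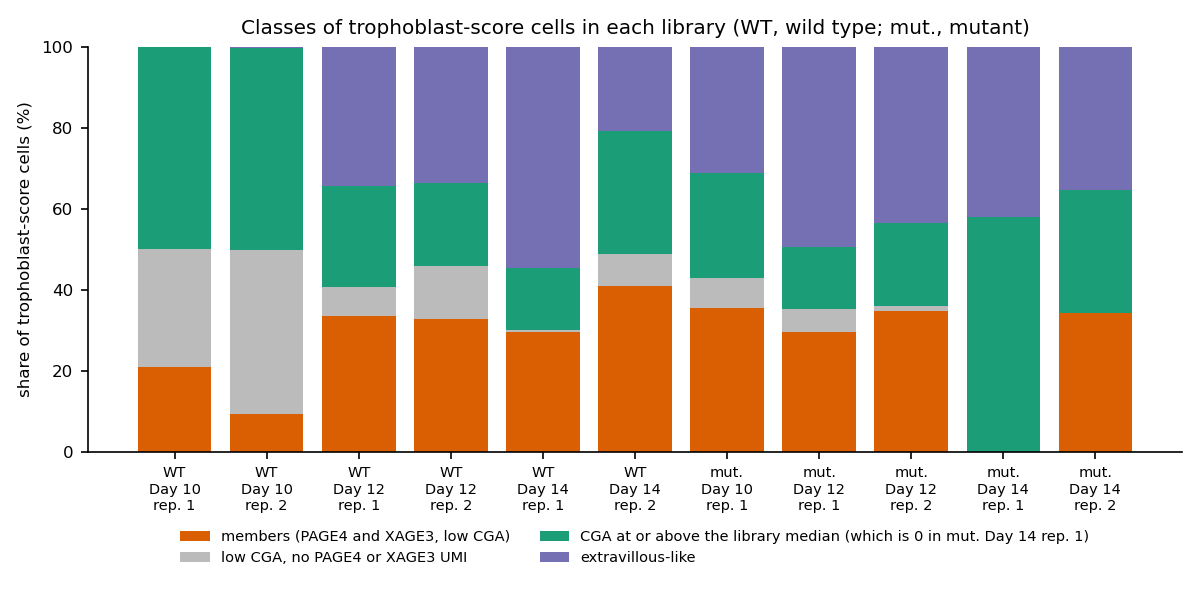
Share of trophoblast-score cells (percent, vertical axis) in each of 4 classes for each of the 11 libraries (horizontal axis). Members (orange) lie between 9.28% and 40.9% wherever there are any, extravillous-like cells (purple) are nearly missing from wild-type Day 10, and mutant Day 14 replicate 1 has no members because its median CGA is 0, so that its CGA-high class (green) holds cells without CGA.

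The cut sat at a different CGA level in each library. It was 33.2 and 9.03 CPM at wild-type Day 10 and 521 to 1787 CPM in the other libraries with members. In WT_D12 replicate 2 the highest member and the lowest cell outside stood at 846 and 847 CPM, so the cut runs through a continuous range. After correction 2843 members (53.4%) had no CGA UMI, 824 (15.5%) lay within 2-fold of their cut, and 1542 (29.0%) had exactly 1 of LAIR2, ISM2 and CALCB above 100 CPM. PAGE4 rested on 1 UMI in 249 members (4.68%), among them 37 of the 83 and 12 of the 32 members of the wild-type Day 10 libraries. Of 33205 distinct barcodes 124 occurred in more than 1 library, and 40 members carried such a barcode.

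The label of these cells was checked against the markers. PAGE4 ranged from 74.4 CPM (WT_D10 replicate 2) to 2763 CPM (mutant_D14 replicate 2) with a median of 1096 CPM over 10 libraries, against a median of 680 CPM in CGA-high cells. It was used by the rule, and the ratio of members to CGA-high cells of the same library was still small, with a median of 0.34 on the log2(CPM + 1) scale and 9 of 10 libraries above 0. XAGE3 (median log2 ratio 0.03) and VGLL1 (-0.02) did not separate the classes. PPARG, a nuclear receptor of trophoblast differentiation that the rule did not use, was also close in both, at a median of 204 against 199 CPM, and had a UMI in 4796 members (90.1%). ITGA6, an integrin of cytotrophoblast, stood at a median of 69.0 CPM in members, 42.1 CPM in CGA-high cells over 10 libraries, and at 22.7 CPM in extravillous-like cells over 8. It was higher in members than in CGA-high cells in 9 of 10 libraries (median log2 ratio 0.86), and CCNE1, a G1 cyclin, was lower in 9 of 10 (-0.42). TP63, PEG10, ELF5, TEAD4, YAP1, EGFR and MET could not be matched to an identifier and were not analysed here. After thinning each cell to 10000 UMIs, PAGE4 was seen in 43.4% and 28.1% of the wild-type Day 10 members and in 73.1% to 99.8% of members of the other libraries, with 0 to 296 shallower members a library left out. Thus PAGE4, XAGE3, VGLL1 and PPARG did little to tell the members from CGA-high cells, and cells outside trophoblast were not compared. The members are named by low CGA with PAGE4 in what follows.

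Members were set against extravillous-like cells in the 8 libraries with members and more than 1 such cell. ITGA6 (median log2 ratio 1.56) and EPCAM (1.69) were higher in members in 8 of 8. CCNE1 (-0.62) and the keratin KRT18 (-0.70) were lower in 8 of 8. The median ratio was 0.11 over the 3 cytotrophoblast markers outside the rule and 0.13 over the 12 epithelial genes. The ratio of PAGE4 was 1.38, but the rule asked for a PAGE4 UMI in members and not in extravillous-like cells. PECAM1, an adhesion molecule of vessel lining, was lower by 5.12 in the median of these libraries, with 7.95 to 32.7 CPM in members and a median of 607 CPM in extravillous-like cells.

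**Figure D2:**
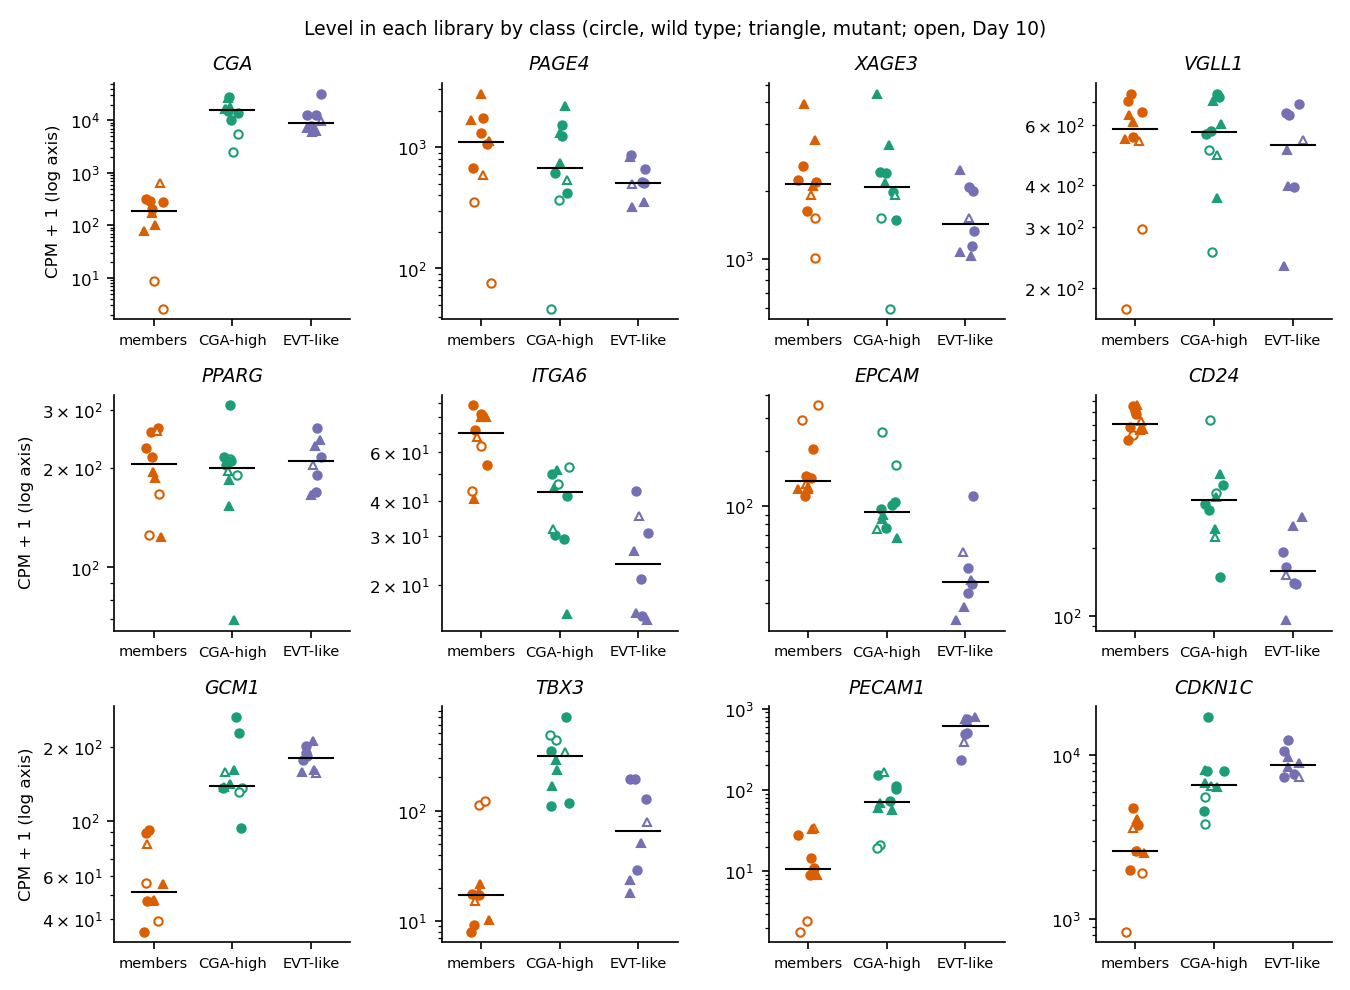
Level of 12 genes (CPM + 1, log axis) in members, CGA-high and extravillous-like (EVT-like) cells. Each point is 1 library (mutant Day 14 replicate 1 is left out), black bars are medians, and the medians of members lie below both other classes for CGA, GCM1, PECAM1 and CDKN1C while PAGE4, XAGE3, VGLL1 and PPARG overlap with CGA-high cells.

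Markers of other cell types were partly used to choose the members, which had to score higher for trophoblast, and so low sums follow in part from the rule. It used 7 of the 10 mesenchyme, 6 of the 9 endoderm and 5 of the 9 epiblast markers, and none of the 6 amnion markers. The 10 mesenchyme markers summed to 12.2 to 77.5 CPM and 9 of them were at 0 in at least 1 library, and the 6 amnion markers summed to 27.0 to 56.9 CPM. The 9 epiblast markers summed to 287 to 572 CPM, against 160 to 503 CPM in CGA-high cells. The 9 endoderm markers summed to 2.12 to 11.6 CPM from Day 12 on and in the mutant Day 10 library, but to 143 and 270 CPM in the wild-type Day 10 members. APOA1, an apolipoprotein of endoderm, had a UMI in 44.6% and 62.5% of those members after thinning cells to 10000 UMIs, and in 42.1% and 63.4% of CGA-high cells of the same libraries. The sums for the Day 10 members thus move with the day comparison described later, and their part in it was not tested. ISL1 stood at 0.420 to 1.60 CPM in members of every library, on 3 to 28 UMIs in wild-type and 12 to 39 UMIs in mutant libraries, which is too little to check the genotype labels.

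Members differed from CGA-high cells in far more than CGA. Of 6799 genes at 10 CPM or more in either class, 28.5% were higher and 13.8% lower in members in every one of 10 libraries, which is the background for the counts that follow. No test was run between these classes, because the rule that separates them uses the same cells. The 24 genes named from this comparison were chosen for 1 sign in all 10 libraries, so signs kept in the same libraries are no separate support. They kept their sign in all 10 libraries with uncorrected counts. With CGA at or below the median, which adds mutant Day 14 replicate 1, NUDT4B was the exception, and with at least 3 UMIs of PAGE4 and XAGE3 CD24 and PDLIM1 were.

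The genes that stood higher in members came from several groups. ID1, an inhibitor of basic helix-loop-helix factors and a target of BMP signalling, had a median of 51.7 CPM in members and 18.8 CPM in CGA-high cells (log2 ratio 1.53, range 0.18 to 1.84), but over 8 libraries it was higher in members than in extravillous-like cells in 4 and lower in 4 (log2 ratio -0.10). CD24, a surface glycoprotein of epithelia, stood at 601 to 857 CPM in members and 149 to 741 CPM in CGA-high cells (log2 ratio 1.19). S100A10, a partner of annexin A2, followed with a log2 ratio of 1.10. MSH6, a mismatch repair gene, had a log2 ratio of 0.97 and LMNB1, a lamin, 0.78. PSIP1, a chromatin-bound coactivator, reached 0.91. The 12 epithelial genes outside the rule did not stand higher as a list, with a median log2 ratio of 0.05 against 0.13 over all genes. Of them EPCAM (0.58), the adhesion molecule CXADR (0.53) and the collagen receptor DDR1 (0.53) were higher in every library. SPINT2, a protease inhibitor, was lower in every library (-0.45), and the other 8 were mixed.

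Genes of the cell cycle were on that side as well. Of 11 genes of G2 and mitosis 7 were higher in every library and none lower (median log2 ratio 0.59 against 0.13 over all genes), among them the spindle gene ASPM (0.74), the phosphatase CDKN3 (0.72) and cyclin CCNB2 (0.63). Of 9 S phase genes 6 were higher and 1 lower in every library (median 0.41), where the exception was PCLAF, a clamp-binding factor (-0.49). MKI67, the proliferation antigen, had a median of 157 CPM in members and 111 CPM in CGA-high cells and was higher in members in 9 of 10 libraries. After thinning each cell to 10000 UMIs it was seen in 47.5% to 73.3% of members, with the lowest share in mutant_D14 replicate 2, and in 26.1% to 65.7% of CGA-high cells of the same libraries. Without thinning it was seen in 43.5% to 96.9% of members. ISL1, an amnion factor that the rule did not use, was seen in 0 to 3.13% of the thinned members.

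Hormone and fusion genes stood lower in members, also those the rule had not used. GCM1, the transcription factor that drives trophoblast fusion, had a median of 50.6 CPM in members and 138 CPM in CGA-high cells and was lower in 10 of 10 libraries (log2 ratio -1.52, range -1.73 to -0.97). FDX1, the electron donor of steroid synthesis (-0.93), HSD17B2, a steroid dehydrogenase (-1.62), LGALS3 (-0.75) and S100P (-0.86) were lower in every library as well. The hormone list held 6 genes outside the rule, and these were the 5 of them at 1 CPM or more. Trophoblast transcription factors went the same way: 10 of 15 were lower in every library, with TBX3 at a log2 ratio of -3.88, TFAP2A at -1.67, GATA2 at -1.67, TFAP2C at -1.11 and GATA3 at -0.78. IRX2 (0.40) was the only one of these 15 that was higher in every library. CDKN1C, an imprinted inhibitor of the cell cycle, was at 841 to 4780 CPM in members and 3800 to 17115 CPM in CGA-high cells (log2 ratio -1.35), and its imprinted neighbour PHLDA2 stood lower by 1.04 in the median library. Of 6 imprinted genes at 1 CPM or more these 2 were lower in every library and 1 was higher, GNAS, a G protein subunit (0.36).

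The largest differences were negative. SGK1, a serum- and steroid-induced kinase, had a median of 4.05 CPM in members and 166 CPM in CGA-high cells (log2 ratio -4.88), and the Notch target HEY1 0.724 against 52.2 CPM (-4.52). NPPB, a natriuretic peptide, stood at 62.7 to 1483 CPM in members and 853 to 4914 CPM in CGA-high cells (-3.27). SAT1, which breaks down polyamines (-3.59), HMOX1, the inducible heme oxygenase (-3.12), the stress factor ATF3 (-2.72) and CD55, a complement inhibitor (-2.10), were also lower in every library. Of 8 stress genes 6 were lower in every library and none higher (median log2 ratio -1.66). LOC102137969, without a name in the sources used here, had the largest difference of the named genes, with 34.6 CPM in members and 2770 CPM in CGA-high cells (-5.55). Metallothioneins and mitochondrial transcripts did not separate the classes, with no gene of either list on the same side in every library.

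**Figure D3:**
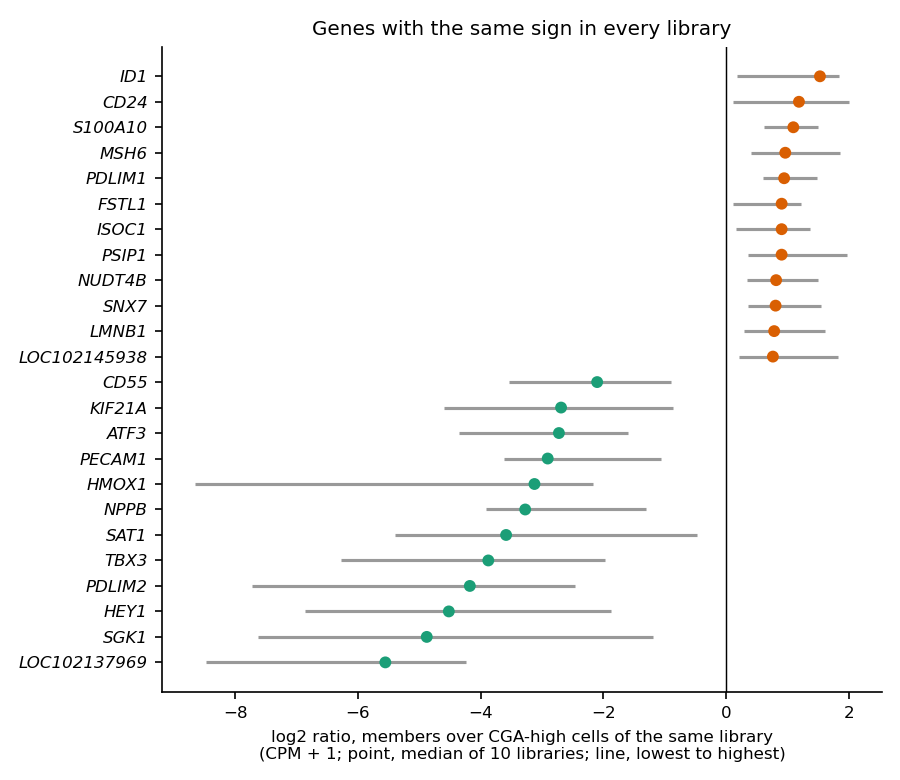
log2 ratio of members to CGA-high cells of the same library (horizontal axis, CPM + 1) for 24 genes with the same sign in all 10 libraries. Points are medians and lines run from the lowest to the highest library, and the negative ratios reach -5.55 while the positive ones end at 1.53.

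Of 5 genes of vessel lining 3 were lower in every library. PECAM1 was lower in members than in CGA-high cells in 10 of 10 libraries (log2 ratio -2.91), as were CLEC1A (-1.64) and CDH5 (-0.89). TEK, with a median of 1.04 CPM in members and 0.757 CPM in CGA-high cells, and VWF, with 1.15 and 0.886 CPM, were barely present in either class and were higher in members in 6 of 10 libraries. After thinning, a PECAM1 UMI was found in 0 to 20.5% of members, 12.2 to 59.8% of CGA-high cells and 75.2 to 96.5% of extravillous-like cells. Unthinned shares reached 57.4%, 93.2% and 98.6%. The members include the 29.0% with 1 of the extravillous markers, and their part in these shares was not tested.

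Hypoxia and glycolysis genes lay on both sides. Of 24 at 1 CPM or more 9 were higher in every library, among them the glycolytic enzymes ENO1 (0.60), TPI1 (0.36) and PGK1 (0.34), and 5 lower, among them the glucose transporter SLC2A1 (-1.05), the vasoactive peptide ADM (-3.83), NDRG1 (-1.09) and the oxygen sensor EGLN3 (-1.53).

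Within members, PAGE4 and XAGE3 varied together only in part. Over members thinned to 10000 UMIs, Spearman's rho of the 2 genes was 0.05 to 0.48 in 10 libraries of 32 to 1217 cells, and that of PAGE4 and MKI67 was -0.18 to 0.35. Cells of a library share their depth and embryos, and so these are descriptions.

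The day comparison asked how members of wild-type embryos differed between Day 10 and Day 14. The members of these days were chosen at unlike depth. Their median was 80401 and 96407.5 UMIs at Day 10 against 42004.5 and 25913.5 UMIs at Day 14. Their CGA cuts were unlike as well, at 33.2 and 9.03 CPM against 1246 and 618 CPM. The part of depth and cut in the calls was not tested. UMIs of members were summed per library (3776703 to 29444085 UMIs over 10 libraries) and tested with edgeR's quasi-likelihood test at a false discovery rate of 1%. Of 12567 genes 254 were called (2.02%), 122 higher at Day 14 (0.971%) and 132 lower (1.05%). Of these 254 calls 4 are genes of the rule (CGA, ISM2, APOA1 and DNMT3B), for which no weight is given to the call.

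Transcription factors of trophoblast were among the genes that fell. CDX2, a transcription factor of trophectoderm, stood at 56.4 and 113 CPM at wild-type Day 10, at 0 and 0.800 CPM at Day 12 and at 0.374 and 0.321 CPM at Day 14. It was thus already low at Day 12, and Day 14 was lower than Day 10 by 7.86 on the log2 scale (SE 0.97, adjusted p 0.00355). HAND1, a bHLH factor of trophoblast and mesoderm, went from 599 and 809 CPM to 23.4 and 54.9 CPM (log2 change -4.26, SE 0.41, adjusted p 0.00175). Of 15 transcription factors of trophoblast 5 fell and 1 rose. The others that fell were TBX3 (-3.40), GATA2 (-1.92) and, named after its value was seen since the naming rule stops at 4 of a list, GATA3 (-1.51). DLX6, named in the same way, rose by 2.37.

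Further genes fell. DNMT3L, a cofactor of DNA methylation, was at 88.1 and 91.4 CPM at Day 10 and 0.917 and 0.641 CPM at Day 14 (log2 change -6.79, adjusted p 0.00220). NLRP7, a maternal-effect gene, went from 353 and 546 CPM to 5.81 and 17.6 CPM (-5.38). CAMK2N1, an inhibitor of CaM kinase II (-10.4), the S100 protein S100A14 (-8.58), the peptidase DPP4 (-6.11) and NGEF, an exchange factor (-6.03), also fell. MTUS2 had 109 UMIs at Day 10 and 1 UMI at Day 14, a ratio of 387 with an exact 95% counting interval of 68.1 to 15438. KRT18, a keratin of simple epithelia, was called with 5741 and 6383 CPM at Day 10 and 1702 and 1279.7 CPM at Day 14 (-2.07).

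Genes that rose had diverse roles. CDH5, the cadherin of vessel lining, was at 0.280 and 0.265 CPM at Day 10 on 3 UMIs in all and at 45.2 and 67.7 CPM at Day 14. The ratio was 184, with an exact 95% counting interval of 63.0 to 895 (adjusted p 0.000870). CLEC1A, a lectin of the same list, rose from 2.66 and 1.59 CPM to 51.6 and 37.5 CPM (log2 change 4.26, adjusted p 0.00199), so 2 of the 5 genes of that list rose and none fell. ITGB2, an integrin chain best known from leukocytes, had 2 UMIs at Day 10 and 1949 at Day 14 (ratio 274, counting interval 75.8 to 2266). CLU, a secreted chaperone (6.42), TAGLN, an actin-binding protein (5.46), PITX1, a homeobox factor (6.52), CCND1, the G1 cyclin D1 (4.67), PPP1R1A, a phosphatase inhibitor (4.82), and VSIR, an immune checkpoint receptor (4.45), rose on the log2 scale. CDH3, the placental cadherin, rose from 38.1 and 36.5 CPM to 99.99 and 159 CPM (1.72, adjusted p 0.00549).

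Outside the rule, no gene passed the test in the lists for cytotrophoblast markers, hormone genes, extravillous genes, S phase, and G2 and mitosis. None passed in those for imprinted genes, hypoxia and glycolysis, stress, metallothioneins and mitochondrial transcripts. The marker lists of epiblast, mesenchyme and amnion held none either, and no endoderm marker outside the rule was tested. All 3 mesenchyme markers outside the rule were higher at Day 14 (median log2 change 5.78 against 0.04 over all genes), on few UMIs. LUM, one of them, had 1 UMI at Day 10 and 83 at Day 14. The sum of the 10 mesenchyme markers was 18.3 and 12.2 CPM at Day 10 and 16.2 and 77.5 CPM at Day 14. CGA of the hormone list (log2 change 5.55) and ISM2 of the extravillous list (5.60) are rule genes that were called. So are APOA1 of the endoderm list (-5.52) and DNMT3B of the epiblast list (-3.84). HSD17B2 of the hormone list had no UMI at Day 10 and 74.3 and 1.71 CPM at Day 14, where nearly all of it lay in replicate 1, and was not called (adjusted p 0.128). Metallothionein sums moved with the day, from 1342 and 697 CPM to 55.6 and 317 CPM, without a call.

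The batch labels B1 and B2 recur at each wild-type day. Over 6226 genes, deviations of same-labelled libraries from their group means correlated at 0.08 between wild-type Day 10 and Day 14. With the label as a block over all libraries with members, mutant ones included, 197 of the 254 were called again. Of the genes named above, CCND1 (log2 change 4.66, adjusted p 0.0108) and S100A14 (-8.58, adjusted p 0.0110) were no longer called. Their changes were nearly the same as without the block. Every call of the 254 kept its sign when any of the 4 libraries was left out, which leaves 1 library at a day. Most of the 254 were no longer called in each of these fits. The calls were chosen on these same libraries, so the kept signs are no separate support. With at least 3 UMIs of PAGE4 and XAGE3 only 1 Day 10 library had enough members, none was called at 1744 genes with an unadjusted p under 0.05, and KRT18 turned to 0.15.

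The libraries not used in this contrast were set on the scale between the wild-type Day 10 and Day 14 means. Over the 250 called genes outside the rule, 239 and 236 were nearer to Day 14 in the Day 12 wild-type libraries. In the 1 mutant library of Day 10, 231 of 250 were nearer to wild-type Day 14 than to wild-type Day 10, with a median position of 84.7% of the way. There CDX2 was at 0.268 CPM, HAND1 at 67.3 CPM, CDH5 at 54.9 CPM and KRT18 at 1036 CPM. This is 1 library of 3 embryos with no replicate, and the difference from wild-type Day 10 was not tested. The mutant Day 12 libraries gave 244 and 247 of 250.

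**Figure D4:**
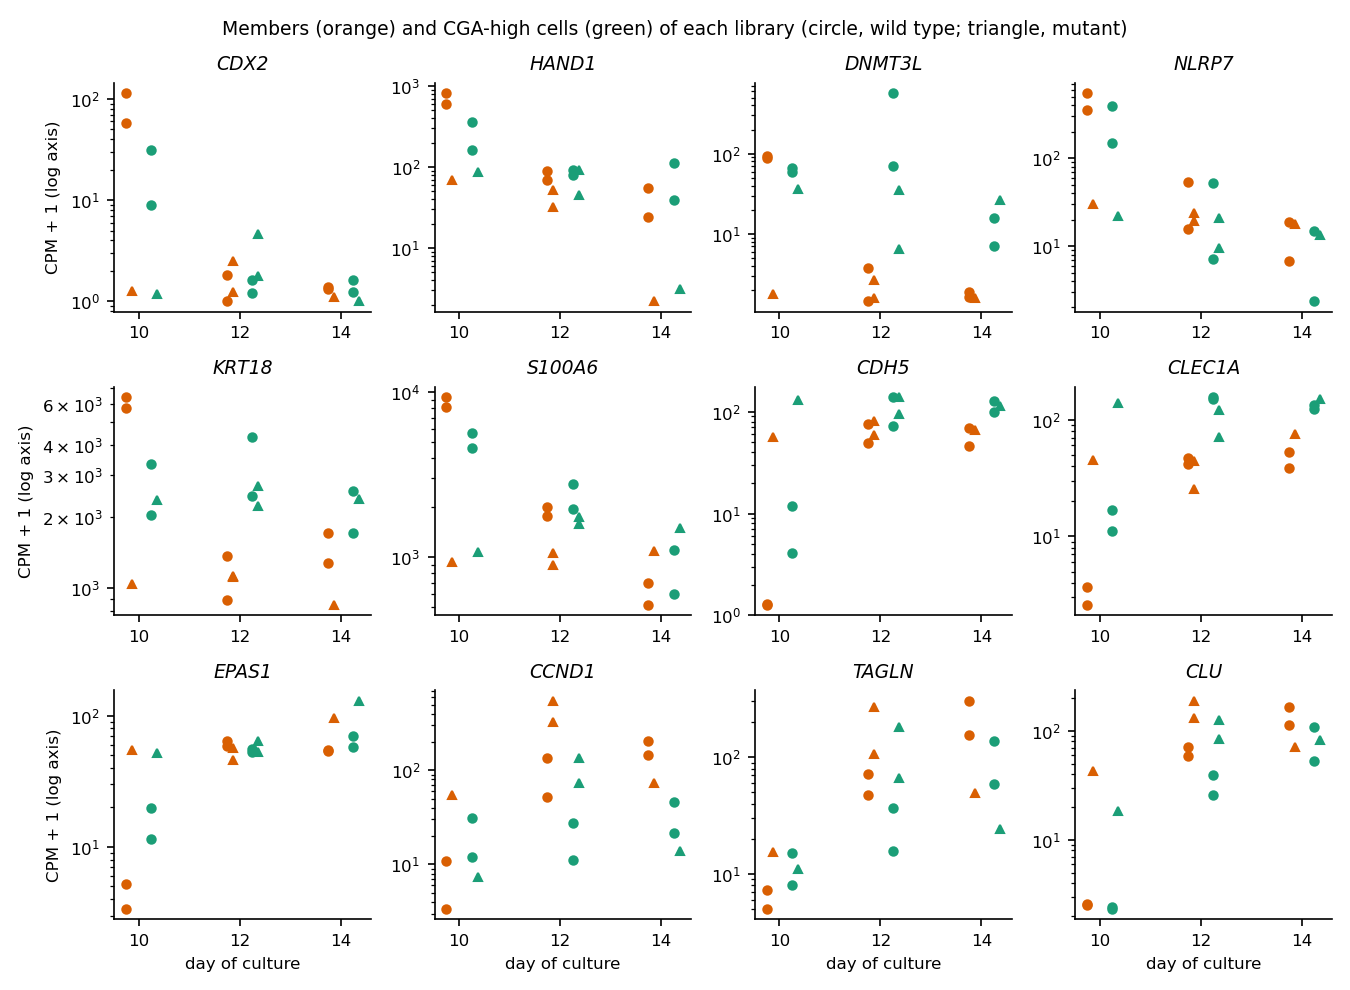
Level of 12 genes (CPM + 1, log axis) by day of culture in members (orange) and CGA-high cells (green), 1 point for each library. In members CDX2, HAND1 and DNMT3L are high in both wild-type Day 10 libraries and low in the mutant one of that day, and CDH5, CLEC1A and CLU show the opposite.

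A 2-class fit with the library as a block asked which of these changes differed between members and CGA-high cells. The CGA cut between the classes was 33.2 and 9.03 CPM at wild-type Day 10 and 1246 and 618 CPM at Day 14. The classes were thus not cut alike at both days, and the part of this in the differences was not tested. Of 13318 genes 26 were called (0.195%), 15 more positive in members (0.113%) and 11 more negative (0.0826%), with the rule genes CGA and CALCB among them. CCND1 differed most among positive named genes, by 4.24 on the log2 scale (SE 0.25, adjusted p 0.000195). It went from 9.80 and 2.38 CPM to 206 and 143 CPM in members, and from 30.1 and 10.99 CPM to 45.3 and 20.3 CPM in CGA-high cells. CDH5 was more positive in members by 3.83, while CGA-high cells had 10.96 and 3.14 CPM at Day 10 and 98.7 and 127 CPM at Day 14. FBN2, a fibrillin (2.40), EPAS1, a hypoxia-inducible factor (1.94), the matricellular CCN1 (1.85), tropomyosin TPM1 (1.36) and the collagen chaperone SERPINH1 (1.26) were more positive in members. DNMT3L (-4.34), HAND1 (-2.37) and S100A6, a calcium-binding protein (-1.19), were more negative. HAND1 started higher in members, at 599 and 809 CPM against 164 and 355 CPM in CGA-high cells, and ended lower, at 23.4 and 54.9 CPM against 38.2 and 111 CPM. Leaving out any of the 4 libraries left 2 to 4 calls, namely 3 and 4 without Day 10 replicates 1 and 2 and 2 without each of the Day 14 replicates. None was called with at least 3 UMIs of PAGE4 and XAGE3, where 963 genes had an unadjusted p under 0.05.

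Members of mutant and wild-type embryos were compared at Day 14 and Day 12, where the Day 14 comparison shares its wild-type libraries with the day comparison. At Day 14, 3 of 12567 genes were called (0.0239%), all higher in the mutant, with 1331 genes at an unadjusted p under 0.05. DESeq2 called 47 higher and 40 lower, and edgeR with no filter on low counts 56 and 21, so the single direction is not kept. ZFAT, a zinc-finger factor, was at 41.6 and 43.4 CPM in the wild type and 385 CPM in mutant replicate 2 (log2 difference 3.28, SE 0.30, adjusted p 0.00881). It was at 346 CPM in mutant replicate 1 with CGA at or below the median and at 39.9 to 65.0 CPM in the mutant libraries of Day 10 and Day 12, so both mutant Day 14 libraries stood apart from all others. CGA-high cells showed the same, with 265 and 310 CPM in the mutant Day 14 libraries (in replicate 1 with the CGA limit at 0) and 28.7 to 45.3 CPM in the other 9. The other calls, ENSMFAG00000035718 (log2 difference 4.84) and ENSMFAG00000041220 (3.40), have no symbol in the sources used here. In this fit the lone mutant library was assumed to vary like the others. With CGA at or below the median, and so both mutant libraries, 5 genes were called, these 3 among them. The rule on uncorrected counts (2 calls) and thinned cells (5 calls) also gave both libraries and called 2 of the 3. None was called with the batch label as a block (1368 genes at an unadjusted p under 0.05), and without wild-type replicate 1 or 2 none was (1289 and 976 genes at an unadjusted p under 0.05).

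At Day 12, 2 of 12567 genes were called (0.0159%), both higher in the mutant, with 1195 genes at an unadjusted p under 0.05. DESeq2 called 19 higher and 17 lower, and edgeR with no filter 16 and 11. ENSMFAG00000040719 was at 0.225 and 0.571 CPM in the wild type and 92.6 and 199.6 CPM in the mutant (log2 difference 8.54), and ENSMFAG00000027138 at 1.57 and 3.66 against 278 and 589 CPM (7.38). Both were also high in the mutant Day 10 library, at 60.7 and 199 CPM, and in mutant Day 14 replicate 1 with CGA at or below the median, at 67.6 and 201 CPM. In mutant Day 14 replicate 2 they were at 0.252 and 2.97 CPM, close to the wild-type values of Day 12, so they separate 4 of the 5 mutant libraries rather than the genotypes. Leaving out wild-type replicate 1 gave 1 other gene, leaving out wild-type replicate 2 gave none and leaving out mutant replicate 2 gave 1 of these 2. With the batch label as a block 4 were called, both of these among them and 2 lower in the mutant. None was called with CGA at or below the median, where 1431 genes had an unadjusted p under 0.05.

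None of the gene lists held a gene that passed at either day. HAND1 came nearest at Day 14, at 23.4 and 54.9 CPM in the wild type and 1.21 CPM in mutant replicate 2 (log2 difference -4.86, SE 0.61, adjusted p 0.0527). In mutant replicate 1, with CGA at or below the median, it was at 10.3 CPM, and the difference with both libraries was -2.70 (adjusted p 0.125). The cytotrophoblast, hormone, extravillous and epithelial lists had median log2 differences between -0.68 and 0.49 at Day 14, against 0.02 over all genes, and between -0.27 and 0.46 with both mutant libraries. Metallothioneins had a median of -2.56 (1 of 5 positive; -1.34 with both libraries) and 4 epiblast markers outside the rule one of -1.96 (1 positive; -1.84 with both and none positive), with none called. All 11 genes of G2 and mitosis were lower in the mutant at Day 14 (median -0.42, none called), but with both mutant libraries 1 was higher and the median was -0.25. MKI67 was seen in 47.5% of thinned members against 61.6% and 69.7%. At Day 12, 9 of the 11 genes of G2 and mitosis were higher in the mutant (median 0.45, none called). Other Day 12 medians were -1.37 for metallothioneins (1 of 5 positive) and 0.54 for the epiblast markers outside the rule (2 of 4 positive). Hormone genes outside the rule had a median of -0.94 (1 of 5 positive). No endoderm marker outside the rule was tested at either day.

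Hypoxia and glycolysis genes leaned to the mutant without a call. At Day 14, 23 of 25 had a positive log2 difference with a median of 1.13, and at Day 12 22 of 25 with a median of 0.55, against 0.02 and -0.03 over all genes. PFKFB4, a regulator of glycolysis, was at 4.55 and 4.27 CPM in the wild type and 20.0 CPM in mutant replicate 2 (log2 difference 2.27, adjusted p 0.0784). ERO1A, an oxidase of the endoplasmic reticulum, was at 48.7 and 40.2 against 179 CPM (2.10, adjusted p 0.176), and ADM at 0.917 and 0.214 against 7.61 CPM (3.62, adjusted p 0.159). With both mutant libraries 24 of 25 were positive with a median of 1.00. In 21 of the 25 genes both mutant libraries lay above both wild-type ones, as they did for 24.6% of all 12567 genes. The exceptions were MXI1, GAPDH, STC2 and DDIT4, of which DDIT4 was lower in both mutant libraries.

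The Day 14 genotype effect was also compared between the classes, with 1 mutant library. With both, edgeR called 0 genes with CGA at or below the median (774 at an unadjusted p under 0.05). It called 0 with the rule on uncorrected counts (733) and 2 with thinned cells (557). The list values of this interaction rest on 1 mutant library and have none for both. In the 2-class fit no gene of 13318 differed in its Day 14 genotype effect between members and CGA-high cells by edgeR (0%), with 1525 at an unadjusted p under 0.05 and 47 called by DESeq2. The edgeR fit called 68 with only the libraries compared and 46 with no filter on low counts, so the 0 depends on these settings. The median interaction of the hypoxia and glycolysis genes was -0.08, with 10 of 25 positive. Genes of G2 and mitosis had a positive interaction in 11 of 11 (median 0.58), and metallothioneins in 0 of 5 (median -3.29), with no gene called. Other values moved with genotype at Day 14. Mutant Day 14 replicate 2 members had a median of 17434.5 UMIs against 42004.5 and 25913.5 in the wild type, and after thinning to 10000 UMIs, which also gave mutant replicate 1 members and so added it to the fit, 23 of 24 hypoxia and glycolysis genes were positive (median 0.98). Mitochondrial transcripts summed to 80359 CPM in mutant replicate 2 and 93182 CPM in replicate 1 against 34933 and 72521 CPM, and stress genes to 2170 and 2347 CPM against 1648 and 1329 CPM. Their part in the difference was not tested.

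**Figure D5:**
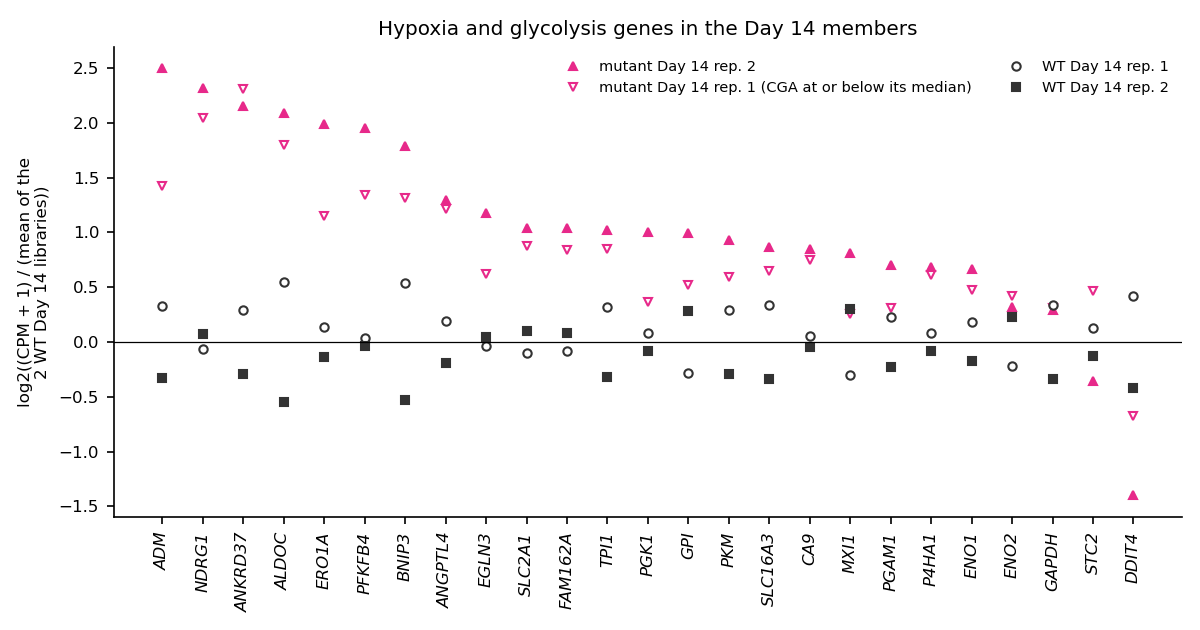
Level of 25 hypoxia and glycolysis genes in Day 14 members relative to the mean of both wild-type libraries (vertical axis, log2 of CPM + 1). Triangles are the mutant libraries (open, replicate 1 with CGA at or below its median) and circles and squares the wild-type ones, and for 21 of 25 genes both triangles lie above both wild-type points.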

How the data were processed

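Single cells of 11 libraries were captured with a droplet method that reads 3′ ends and UMIs. Alignment and counting by the authors used Cell Ranger 3.1.0 and Macaca_fascicularis_5.0 (Ensembl release 96). Genes had to occur in 3 or more cells, cells needed a stated mitochondrial share below 7.5% and a suitable number of genes (the 13 mitochondrial genes reach 83534 CPM in summed members, so that limit does not hold for these values), and ambient RNA was subtracted with SoupX, estimated from choriogonadotropin in POU5F1-positive cells. The deposited corrected values are expected counts (whole numbers, unscaled), and the deposited uncorrected values are counts. Libraries held 36654977 to 164808415 UMIs. Cells present without correction alone (209) were left out.

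Gene symbols came from the study's supplement, which pairs 1019 of 19367 identifiers. Other names were not used here, and no sequence or coordinate is given. The score used ln(1 + 10000 × UMI / total). Sums of members per library, with at least 20 members, were fitted with edgeR 4.0.16 (R 4.3.3, limma 3.58.1; TMM, filterByExpr, quasi-likelihood, Benjamini-Hochberg, 1 coefficient for each genotype and day) at 1%. The 2-class fit had the library as a block. The SE of an edgeR fit is the absolute log2 change divided by the square root of its F statistic. DESeq2 1.42.0 was an alternative. The edgeR fits, but not DESeq2, were tested on simulated counts drawn with the same spread for every gene. Shares, and ratios of UMIs pooled over the libraries of a day, have exact (Clopper-Pearson) 95% intervals, for counting error only.

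Named genes were those with a symbol, up to 8 in each direction by size of change among called genes whose libraries did not overlap, and up to 4 of each list by adjusted p. Beside CGA-high cells they were up to 12 in each direction by median log2 ratio, of 1 sign in every library and at 50 CPM or more in the higher class. Members and lists were chosen with earlier results of these data known.

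Replicate numbers are the batch labels. Same-numbered deviations from group means over 6226 genes correlated at 0.04, 0.08 and 0.52 between wild-type days and at -0.20 to 0.07 with mutant Day 12. Replicates differed by more than sampling noise (chi-square per degree of freedom 22.7 to 114). Libraries of 1 to 3 embryos are the replicates, so p-values measure the spread between libraries. WT_D12 replicate 1, mutant_D12 replicate 2 and mutant_D14 replicate 2 held 1 embryo each and are not pools. No doublet caller was run. Members over 3 times their library's median UMIs numbered 42 in mutant Day 14 replicate 2, 7 in each mutant Day 12 library and 4 in wild-type Day 14 replicate 1.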

Additional observations from a re-analysis of the deposited data

Results flagged for a closer look

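In the wild type, 26 of 13318 genes (0.195%) changed from Day 10 to Day 14 by a different amount in members than in CGA-high cells. They were called by the interaction term of the 2-class edgeR fit at a false discovery rate of 1%, and the rule genes CGA and CALCB were among them. The named ones outside the rule are given as the change in members minus that in CGA-high cells on the log2 scale. On the positive side they were CCND1 (4.238), CDH5 (3.833), FBN2 (2.402), EPAS1 (1.938), CCN1 (1.854), TPM1 (1.355) and SERPINH1 (1.26). On the negative side they were DNMT3L (-4.338), HAND1 (-2.369) and S100A6 (-1.194). In CGA-high cells DNMT3L also differed between the wild-type Day 12 libraries, with 562 CPM in replicate 1 and 68.9 CPM in replicate 2. Members of these libraries held 2.77 and 0.457 CPM. The CGA cut between the classes was 33.2 and 9.03 CPM at wild-type Day 10 and 1246 and 618 CPM at Day 14. Its part in the differences over days was not tested.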

How the results depend on the processing

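Numbers of called genes, and their split into higher and lower, depended on the processing. For mutant against wild type at Day 14 (3 calls), DESeq2 gave 87, no filter on low counts 77, thinned cells 5, CGA at or below the median 5, the rule on uncorrected counts 2, only the libraries compared 1, and the replicate block, a lower quantile as the limit on CGA and a minimum of 3 UMIs of PAGE4 and XAGE3 0 each. Leaving out a wild-type replicate gave 0 to 0 calls, and without mutant replicate 2 no library was left. At Day 12 (2 calls) DESeq2 gave 36, no filter 27, the replicate block 4, only the libraries compared 1, and 0 resulted from the lower limit on CGA, 3 UMIs, thinning, CGA at or below the median and the rule on uncorrected counts. Leaving out a replicate gave 0 to 2. For wild-type Day 14 against Day 10 (254 calls) DESeq2 gave 825, no filter 843, CGA at or below the median 390, the rule on uncorrected counts 407 and 3 UMIs 0. Leaving out a replicate gave 7 to 81. With only the libraries compared 262 were called, 90 of them higher and 172 lower against 122 and 132. With the replicate block 228 genes were called, 197 of the 254 among them. Whether a batch label marks the same batch in mutant and wild-type embryos is not stated, so between genotypes the block may pair libraries by number alone. The genotype interaction (0 calls) gave 47 with DESeq2, 46 with no filter, 68 with only the libraries compared and 2 with thinning. The day interaction (26 calls) gave 131 with DESeq2, 95 with no filter, 102 with only the libraries compared, 13 with CGA at or below the median, 15 with the rule on uncorrected counts and 0 with 3 UMIs, and leaving out a replicate gave 2 to 4. With 3 UMIs KRT18 turned to 0.15 in the day comparison and ENSMFAG00000046411 to 3.61 in the day interaction. That setting leaves 1 Day 10 library, and other causes were not tested. The lower limit on CGA and thinning put the CGA cut at 0 in both wild-type Day 10 libraries. They then held 0 members, so the day fits could not be made. The 2-class fit already has the library as a block. Size factors of DESeq2 and uncorrected counts of the same cells kept every total of calls within 1.5 times, although the genes more negative in members in the day interaction went from 11 to 7 with uncorrected counts. Members were shallowest in mutant Day 14 replicate 2, at a median of 17434.5 UMIs, and PAGE4 rested on a median of 2 UMIs in wild-type Day 10 members.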
